A study of Mus musculus with 6 samples.

Results

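NRF2, the transcription factor encoded by Nfe2l2, and 9 antioxidant genes that are widely used as its targets were examined in pancreatic tumour cells of mice with and without Msi1. The 10 genes were taken as a list of symbols. Each is represented by the probe set of highest mean intensity among those that the array annotation assigns to that symbol alone. All 10 were measured, by 22 probe sets, out of 18193 named genes and 45037 probe sets on the array. No filter on low values was applied, so each of the 10 genes entered the test.

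NRF2 is held in the cytoplasm by KEAP1, which presents it to a CUL3 ubiquitin ligase for destruction. When oxidants or electrophiles modify KEAP1, NRF2 accumulates, pairs with a small MAF protein in the nucleus and binds antioxidant response elements. Its targets make glutathione, renew thioredoxin, conjugate electrophiles, reduce quinones and break down heme. In pancreatic tumour cells driven by Ras signalling the pathway is known for lowering reactive oxygen species.

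Both groups consisted of pancreatic tumour cells from C57BL/6 mice aged 11 weeks. They carried engineered tumour alleles, with p53f/f and ptf1a-Cre, a Cre active in the pancreatic lineage, among them. The control group, 3 samples labelled wt, kept Msi1 and had these tumour alleles, so it is a tumour group and not healthy pancreas. The other group, 3 samples labelled Msi1 -/- and called Msi1-null here, lacked the RNA-binding protein Musashi 1 in addition. Each sample was 1 array of a whole cell preparation, and the sources used here do not say how the tumour cells were isolated. They also do not state whether 1 animal or several stand behind the arrays of a group. The p-values therefore reflect only how far these samples vary. The comparison asks which transcripts differ when Msi1 is missing from these tumours.

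The brightest Msi1 probe set read 144, 150.4 and 257 in the wild-type group and 141, 168.5 and 127 in the Msi1-null group. At this level, and without knowing where it lies relative to the deletion, it does not check the labels.

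Sex-linked transcripts and signs of quality set some arrays apart. Xist, the RNA of the inactive X chromosome, gave 376, 387 and 6226 in the wild-type group and 137, 131 and 186 in the Msi1-null group, without overlap (limma unadjusted p = 0.0289, adjusted p = 0.9997). Eif2s3y, a Y-linked gene, gave 88.2 in wild-type replicate 3 and 716 to 944 elsewhere. That array had a female pattern, and the other 5 had Y-linked signal. Wild-type replicates 1 and 2 also had more Xist than the Msi1-null arrays, so their pattern was not plainly male. The reason was not tested. Msi1-null replicate 1 had the lowest array weight in limma, 0.34. Its ratio of 3' to 5' Gapdh control signal was also the lowest, 1.38 against 1.55 to 1.86, which is no sign of degraded RNA. Array background, the intensity below which 95% of 81 probe sets for odorant, vomeronasal and trace amine receptors lay, was 191 in that array and between 163 and 167 in the others. Of 12 markers of ductal and tumour epithelium, 12 were above this background on all arrays. So were 13 of 14 macrophage markers and 12 of 12 fibroblast markers, so the preparations also held RNA of genes typical of stromal cells.

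None of the 10 genes was called between the genotypes. At an adjusted p under 0.05 (limma, Benjamini-Hochberg over all probe sets) 0 of 10 genes passed, and the background was 0% of the 45037 probe sets. At an unadjusted p under 0.05 it was again 0 of 10, beside 3.01% of all probe sets. The smallest unadjusted p was 0.303, for Nqo1, and each of the 10 adjusted p-values was 0.9997 (limma). The groups overlapped at each of the 10 genes, while 7.79% of all probe sets showed no overlap. In Msi1-null arrays 7 genes had lower and 3 had higher log2 means, and 49.8% of all genes had lower means. The median log2 difference of the 10 genes was -0.05, and the median over all genes was 0.00059. With array weights, and without wild-type replicate 1, wild-type replicate 3 or Msi1-null replicate 1, the median of the 10 genes was 0.0090, 0.017, 0.019 and 0.0013.

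**Figure D1:**
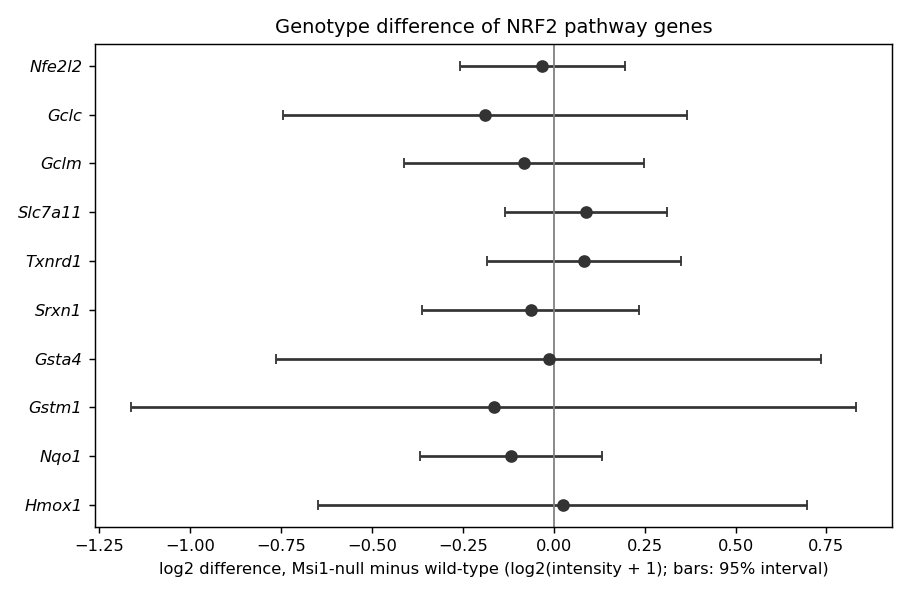
Log2 difference of each gene, Msi1-null minus wild-type, on the x axis in log2(intensity + 1), with 1 row per gene; points are limma estimates and bars their 95% intervals (3 arrays per group). Each of the 10 intervals includes 0, and they are widest for Gstm1, from -1.16 to 0.83.

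Antioxidant response elements share a core of letters that can be looked for at the start of the genes. RefSeq promoter windows (GRCm38.p6, 250 bases before to 50 after a start site) were found for 7 of the 10 genes, 10 windows in all. The core TGACNNNGC was searched on both strands. It occurred in windows of 4 of these 7 genes, and in those of 14% of all 27025 genes with a window. A second form, TGAGNNNGC, chosen after the first had been searched, occurred in 2 of the 7 genes and in 19.8% of all genes. The AP-1 letters TGANTCA, which read alike on both strands and overlap the second form when GC follows, occurred in 1 of the 7 and in 8.97% of all genes. The following stretches show these letters in the genes described here, in the direction of the gene, with the matched letters in capitals.
Nfe2l2, chr2:75704875-75704913, minus strand: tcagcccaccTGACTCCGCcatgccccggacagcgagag
Gclm, chr3:122245403-122245451, plus strand: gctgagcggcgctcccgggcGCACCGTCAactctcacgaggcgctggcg
Slc7a11, chr3:50443682-50443730, minus strand: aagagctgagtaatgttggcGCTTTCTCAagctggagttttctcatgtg
Txnrd1, chr10:82859094-82859142, plus strand: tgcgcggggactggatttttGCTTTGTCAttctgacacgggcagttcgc
Srxn1, chr2:152105459-152105507, plus strand: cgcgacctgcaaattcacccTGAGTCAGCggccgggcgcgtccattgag
The Nfe2l2 and Srxn1 letters read in the direction of the gene, and those of Gclm, Slc7a11 and Txnrd1 on the opposite strand. The Srxn1 element begins 45 bases before the start site and holds the AP-1 letters as well. Srxn1, the gene of sulfiredoxin, had another AP-1 match 102 bases and another TGAGNNNGC match 158 bases before the start. It also had a TGACNNNGC match 28 bases after it. Txnrd1 had the match in 1 of 3 windows. No match was found in the windows of Nqo1 and Gstm1, which says nothing about elements farther away. Such letters are common and are not shown here to be bound. The 5 genes with printed matches had log2 differences between -0.08 and 0.09, and Nqo1 and Gstm1 had -0.12 and -0.17, each of them uncalled.

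Nfe2l2 itself was bright and even. At probe set 1416543_at its intensity was 2445, 2134 and 2275 in wild-type replicates 1 to 3 and 2212, 2311 and 2176 in Msi1-null replicates 1 to 3. All Msi1-null values lay inside the wild-type range. The means were 2284 ± 156 and 2233 ± 70.1 (SD, n = 3), a log2 difference of -0.03 ± 0.10 (SE; 95% interval -0.26 to 0.20). In linear terms the interval spans 0.837-fold to 1.15-fold. Among all genes, 73.2% varied more over the 6 arrays than Nfe2l2 did. A dim second Nfe2l2 probe set gave 355 for wild-type replicate 1, against 108 to 146 elsewhere. These data measure the transcript, and NRF2 activity is set mainly by the stability of the protein.

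Glutathione synthesis begins with glutamate-cysteine ligase, whose catalytic subunit is encoded by Gclc and whose modifier subunit is encoded by Gclm. Gclc (1424296_at) read 1282, 750 and 1027 in wild-type and 674, 1074 and 919.5 in Msi1-null arrays. The highest value was in wild-type replicate 1 and the lowest in Msi1-null replicate 1, and the groups overlapped. Its means were 1020 ± 266 and 889 ± 201.5 (SD, n = 3), a log2 difference of -0.19 ± 0.24 (SE; 95% interval -0.75 to 0.37). Without Msi1-null replicate 1 the difference was -0.0034, and without wild-type replicate 2 it was -0.39. The other Gclc probe set gave -0.15 ± 0.22 (SE). It was also highest in wild-type replicate 1, at 1140, but lowest in wild-type replicate 2, at 606.5.

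Gclm (1418627_at) read 1223, 939 and 995 in wild-type and 874, 1051 and 1049 in Msi1-null arrays. As for Gclc, the extremes were wild-type replicate 1 and Msi1-null replicate 1. Its log2 difference was -0.08 ± 0.14 (SE; 95% interval -0.41 to 0.25), and -0.0080 ± 0.17 (SE) at the second probe set. Without wild-type replicate 1 the first value became 0.03. Slc7a11, the cystine importer that supplies cysteine for glutathione, was dim. At 1420413_at it read 139.5, 152 and 175 in wild-type and 178, 158 and 158 in Msi1-null arrays, above array background on 1 of 6 arrays. Its log2 difference was 0.09 ± 0.10 (SE; 95% interval -0.14 to 0.31), which for a gene at background gives little information on its level. A second Slc7a11 probe set differed by -0.03 ± 0.09 (SE).

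Txnrd1, the cytosolic thioredoxin reductase, keeps thioredoxin reduced at the cost of NADPH. Its values at 1421529_a_at were 1922, 2098 and 2308 in wild-type and 2027, 2347 and 2330 in Msi1-null arrays. A pair of Msi1-null arrays lay just above all wild-type arrays, and Msi1-null replicate 1 lay below 2 of them. The log2 difference was 0.08 ± 0.11 (SE; 95% interval -0.18 to 0.35), and ran from 0.02 without wild-type replicate 1 to 0.15 without Msi1-null replicate 1. The remaining 2 Txnrd1 probe sets were below background on all arrays. Srxn1 encodes sulfiredoxin, which repairs over-oxidised peroxiredoxins. At 1426875_s_at it read 363, 404 and 495 in wild-type and 394, 388 and 417 in Msi1-null arrays, so that wild-type replicate 3 was highest and wild-type replicate 1 lowest. Its log2 difference was -0.06 ± 0.13 (SE; 95% interval -0.36 to 0.24) and became 0.06 without wild-type replicate 3.

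One Srxn1 probe set gave the opposite sign without overlap. Probe set 1451680_at read 178, 175 and 165 in wild-type and 200.4, 196 and 187 in the Msi1-null group, which differed on the log2 scale by 0.17 ± 0.06 (SE; limma unadjusted p = 0.0318, adjusted p = 0.9997). It was the single one of the 22 probe sets without overlap and the single one with an unadjusted p under 0.05, beside 7.79% and 3.01% of all probe sets. Its values lay above but close to the array background, which was also highest in Msi1-null replicate 1, where this probe set was highest. The part of that background in the difference was not tested. The other 2 dim Srxn1 probe sets differed by 0.0083 and 0.04.

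The glutathione transferases Gsta4 and Gstm1 varied most between arrays of 1 genotype. Gsta4, whose product conjugates the lipid peroxidation product hydroxynonenal to glutathione, read (at 1416368_at) 4765, 3823 and 5041 in wild-type arrays. In Msi1-null arrays it read 2624, 6905 and 4920, so that both the lowest and the highest array were Msi1-null. Its means were 4543 ± 639 and 4816 ± 2142 (SD, n = 3), a log2 difference of -0.01 ± 0.32 (SE; 95% interval -0.76 to 0.74). The interval spans 0.589-fold to 1.67-fold. Without Msi1-null replicate 1 the log2 difference was 0.37 and without Msi1-null replicate 2 it was -0.33. Of all genes, 3.04% had a larger SD over the 6 arrays.

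Gstm1 encodes a mu class transferase that conjugates a broad range of electrophiles. At 1416416_x_at it read 1274, 759 and 851 in wild-type and 624, 1713 and 546 in Msi1-null arrays. Replicate 2 of the Msi1-null group was 3.14-fold above replicate 3 of the same group, and the wild-type values lay between them. The means were 962 ± 275 and 961 ± 652.5 (SD, n = 3), and the log2 difference was -0.17 ± 0.43 (SE; 95% interval -1.16 to 0.83). Without Msi1-null replicate 2 it was -0.68, at an unadjusted p of 0.0226 and an adjusted p that rounded to 1 (limma). A second bright probe set, 1448330_at, gave the same order of the 6 arrays, from 477 in Msi1-null replicate 3 to 1496 in Msi1-null replicate 2. Dimmer Gstm1 probe sets varied less. At 1425627_x_at values ran from 214 in Msi1-null replicate 3 to 305 in wild-type replicate 1, with 303 in Msi1-null replicate 2. At 1425626_at they ran from 179 in Msi1-null replicate 3 to 202 in Msi1-null replicate 1. Mu class genes are close relatives, and the probe set used is of a type whose probes can bind several transcripts, so the values may include relatives of Gstm1.

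Nqo1, the quinone reductase most often used to read NRF2 activity, was at background. Its only probe set, 1423627_at, read 148.5, 132 and 171 in wild-type and 128, 134 and 152 in Msi1-null arrays, with 1 of 6 values, that of wild-type replicate 3, above array background. The log2 difference was -0.12 ± 0.11 (SE; 95% interval -0.37 to 0.13), and without wild-type replicate 3 it was -0.02. A change of Nqo1 below this level could not be measured here.

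Hmox1 encodes heme oxygenase 1, which breaks heme down to biliverdin, iron and carbon monoxide. Its intensity at 1448239_at was 461, 531 and 817 in wild-type and 842, 433 and 577 in Msi1-null arrays. Each genotype had 1 high array, wild-type replicate 3 and Msi1-null replicate 1. The means were 603 ± 189 and 617 ± 207 (SD, n = 3), a log2 difference of 0.02 ± 0.29 (SE; 95% interval -0.65 to 0.70; exact two-sided permutation p = 0.9, with 0.1 the smallest that 20 assignments of the arrays allow). Without Msi1-null replicate 1 the difference was -0.23 and without wild-type replicate 3 it was 0.27.

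**Figure D2:**
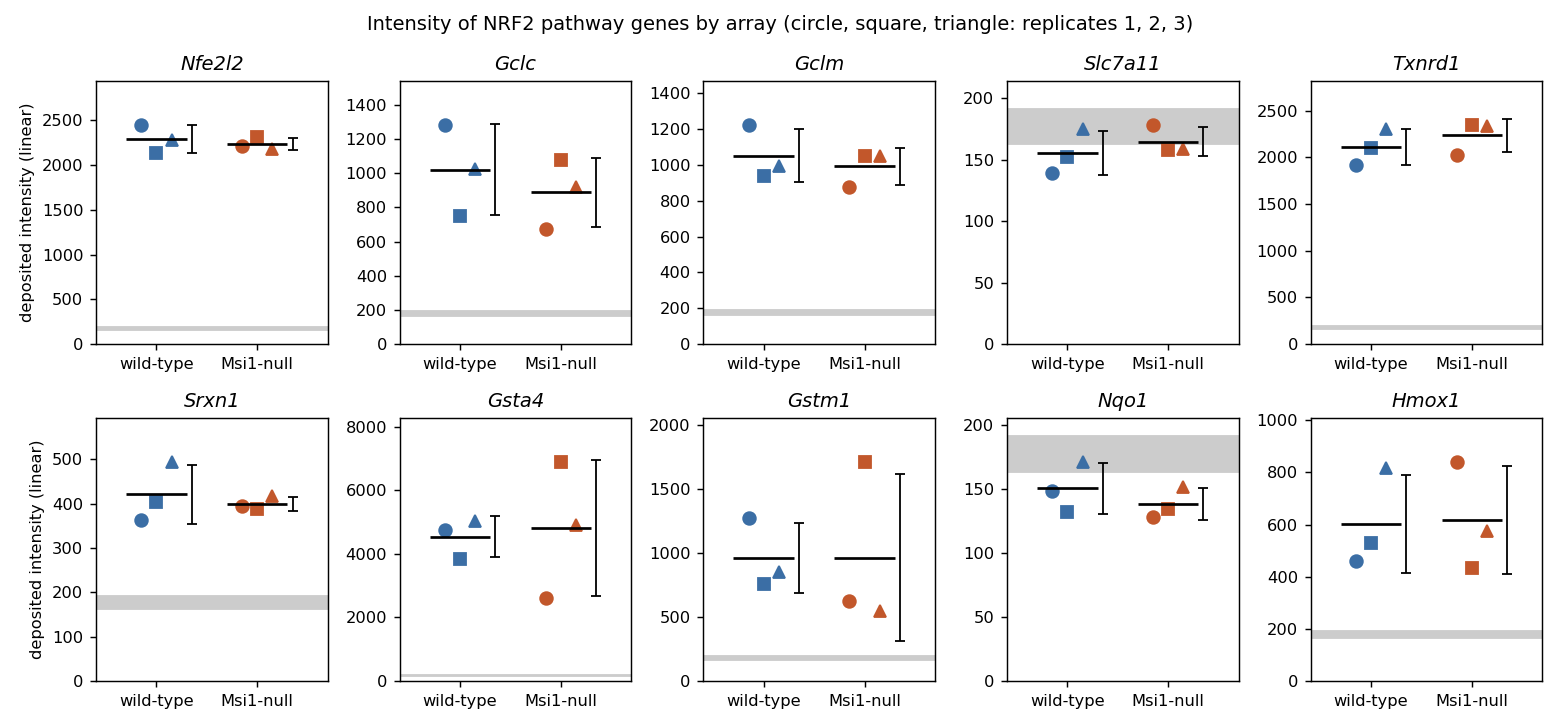
Deposited linear intensity on the y axis for each of the 10 genes in wild-type (blue) and Msi1-null (orange) arrays; circles, squares and triangles are replicates 1, 2 and 3, horizontal bars are means, vertical bars are SD (n = 3) and the grey band spans array background in the 6 arrays. The groups overlap in each panel, Gstm1 reaches 1713 in Msi1-null replicate 2, and Slc7a11 and Nqo1 lie at the grey band.

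The spread within a genotype exceeded the difference between genotypes. On the log2 scale the larger of the 2 within-group SDs was above the absolute difference at 10 of 10 genes, and the smaller SD at 9 of 10, with Srxn1 the exception. For Gstm1 the SD was 0.39 among wild-type arrays and 0.90 among Msi1-null ones, against a difference of 0.17 in size. For Gsta4 it was 0.21 and 0.71, against 0.01. Msi1-null replicate 1 was the lowest array for 4 genes (Gclc, Gclm, Gsta4 and Nqo1) and the highest for Slc7a11 and Hmox1. The second probe sets of Gclc, Gclm and Slc7a11 had other extremes. There wild-type replicate 2 was lowest for Gclc, at 606.5, and Msi1-null replicate 3 for Gclm, at 311. Slc7a11 was highest in wild-type replicate 3, at 172. In Msi1-null replicate 1 Nqo1, at 128, and Slc7a11, at 178, were below the array background of 191, so their order says little. Msi1-null replicate 2 was the highest for Txnrd1, Gsta4 and Gstm1 and the lowest for Hmox1.

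Msi1-null replicates 1 and 2 also stood at the ends of several marker lists. They were at opposite ends for macrophages, fibroblasts and islet cells and at the same end for acinar cells and, by the sum, neutrophils. The summed intensity of the 14 macrophage and monocyte markers was 63550 in Msi1-null replicate 1 and 36300 in Msi1-null replicate 2, and between 43100 and 52440 in wild-type arrays. Hmox1, which macrophages express strongly, was highest and lowest in these 2 arrays. In wild-type replicate 3, however, Hmox1 was 817 at a macrophage sum of 43790. The sum of the 12 fibroblast markers was 74630 in Msi1-null replicate 1 and 48950 in replicate 2, with 58440 to 62520 in wild-type arrays. The sum of 12 epithelial markers was lowest in Msi1-null replicate 1, at 56320, and between 68080 and 85870 in the other arrays. Acinar markers, 11 measured, summed to 13950 and 15230 in Msi1-null replicates 1 and 2 and to 40860 to 66830 in the other arrays. The 8 islet markers measured summed to 5518 and 14010 in these 2 arrays and to between 6923 and 8850 in the others. The 10 neutrophil markers summed to 10050 and 15440 against 5243 to 8262. Most of the sum in Msi1-null replicate 2 was Ltf, at 9504 against 1035 to 1506 in the other arrays. In that array S100a8, at 2387, and S100a9, at 1855, lay inside the wild-type range. No marker was at 0, the lowest deposited value being 51.2. Fewer cells of a type and less RNA per cell cannot be told apart in such preparations. The part of these markers in the spread of the antioxidant genes was not tested.

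**Figure D3:**
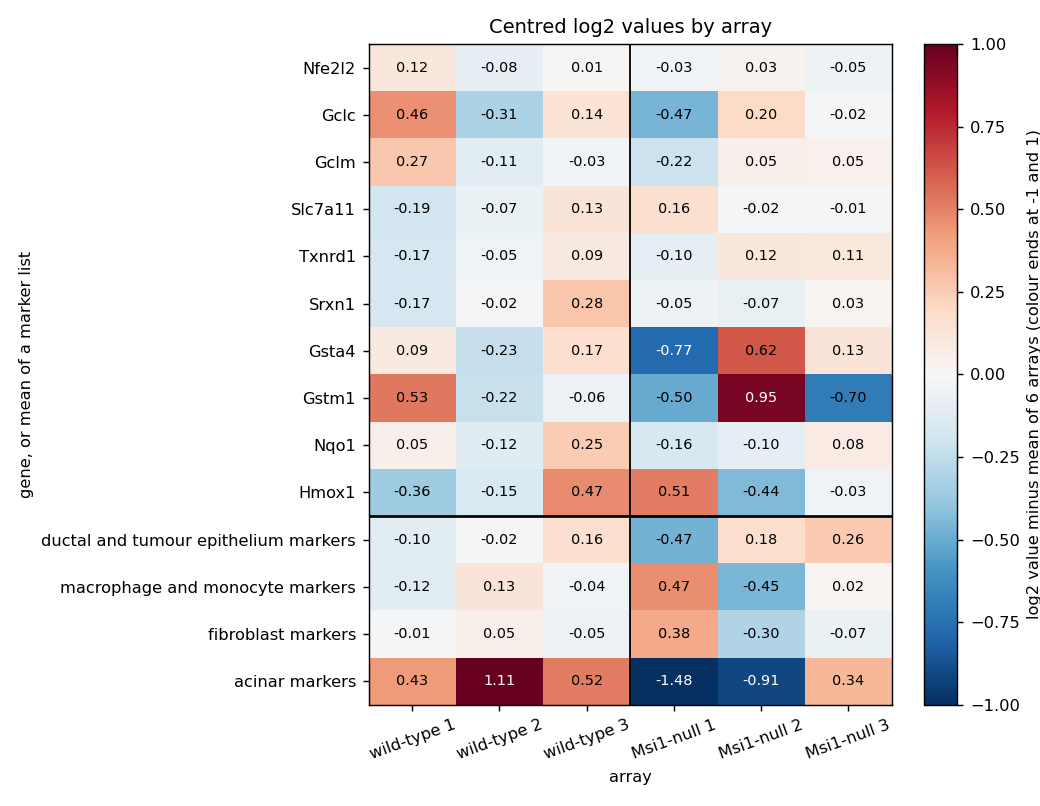
Log2 value of each gene in each array minus its mean over the 6 arrays (colour and printed number; columns are arrays, rows are genes, and below the line the mean over the markers of 4 cell types). Msi1-null replicate 1 is at -0.77 for Gsta4 and 0.51 for Hmox1, and Msi1-null replicate 2 at 0.62 and -0.44.

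The surrounding pathway gave no call either. Of 121 genes in 8 lists of regulators, enzymes and transporters, 107 had a probe set of their own and 0 of these passed an adjusted p under 0.05 in either direction (limma), beside 0% of all probe sets. At an unadjusted p under 0.05 there was 1, beside 3.01% of all probe sets. This was Alas1, the first enzyme of heme synthesis, named after its value was seen. Its means were 865 ± 22.6 with Msi1 and 684 ± 42.8 without (SD, n = 3), at a log2 difference of -0.34 (limma unadjusted p = 0.0106). The groups did not overlap at 6 of the 107 genes, beside 7.79% of all probe sets. The median log2 difference of the 107 genes was -0.02, and 98 of them were above array background on all 6 arrays. Of the 29 genes of these lists named for their role or as the ends of a list, 28 moved by over 1.5 times or changed sign when 1 array was left out, and Txnrd3 did not.

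Among 13 regulators of NRF2, 12 had lower and 1 had higher means in Msi1-null arrays, with a median log2 difference of -0.08 and 0 called. Of all genes, 49.8% had lower means. Array background was exceeded on all 6 arrays by 11 of the 13, and on 0 arrays by Rbx1 and Btrc. The inhibitor Keap1 differed by -0.04 ± 0.10 and Cul3, the scaffold of its ligase, by -0.20 ± 0.13 (SE). Bach1, a repressor that competes for the same elements, differed by -0.08 ± 0.15, and Nfe2l1, a related factor, by -0.08 ± 0.11 (SE). Mafg, a small MAF partner, read 1005, 923 and 987 in wild-type and 825, 916 and 922.5 in Msi1-null arrays, a narrow gap between groups that did not overlap. Sqstm1, the autophagy receptor that can sequester KEAP1, had the positive difference, 0.07 ± 0.19 (SE). Without wild-type replicate 1 it was 0.29, and without wild-type replicate 2 it was -0.09. Its level was highest in wild-type replicate 1, at 2537. Of the 10 genes, 3 were highest in that array (Nfe2l2, Gclc and Gclm) and 3 were lowest (Slc7a11, Txnrd1 and Srxn1).

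Genes of glutathione synthesis and recycling had higher means for 10 of 14 and a median log2 difference of 0.03. Gss, glutathione synthetase, differed by 0.09 ± 0.23, Gsr, glutathione reductase, by -0.09 ± 0.16, and Slc3a2, the heavy chain that pairs with Slc7a11, by 0.03 ± 0.10 (SE). The outermost values were those of 2 glutathione peroxidases, the epithelial Gpx2 at 0.46 ± 0.40 and the secreted Gpx3 at -0.51 ± 0.25 (SE). Gpx2 was 0.014 without Msi1-null replicate 2 and 0.81 without Msi1-null replicate 1, and Gpx3 was -0.78 without wild-type replicate 3 and -0.32 without Msi1-null replicate 2. Gpx2 read 4731 in Msi1-null replicate 2 and between 1287 and 2234 in the other arrays. Of the other glutathione transferases 9 of 20 had higher means, with a median of -0.01. Gstp1 differed by 0.11 ± 0.12, Gsto1 by 0.20 ± 0.25 and the microsomal Mgst1 by -0.29 ± 0.24 (SE). Gsto1, like Gsta4 and Gstm1, was highest in Msi1-null replicate 2, at 8322, and its difference without that array was -0.05. Without Msi1-null replicate 3 Mgst1 differed by -0.05.

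Thioredoxin and peroxiredoxin genes had higher means for 7 of 11, with a median of 0.07. Txn1, thioredoxin, differed by 0.05 ± 0.08 (SE), Prdx4, a peroxiredoxin of the endoplasmic reticulum, by 0.29 ± 0.16 (SE), and Txnrd3 by -0.29 ± 0.12 (SE). For NADPH supply 6 of 11 were higher, with Me1, malic enzyme, at 0.0099 ± 0.17, Mthfd2 at 0.25 ± 0.19 and Nnt at -0.38 ± 0.26 (SE). Leaving out wild-type replicate 1 gave 0.04 for Mthfd2, leaving out wild-type replicate 3 gave 0.40, and Nnt was -0.10 without Msi1-null replicate 1. Of the reductases, conjugating enzymes and efflux pumps 7 of 17 were higher, with Cbr3, a carbonyl reductase, at 0.07 ± 0.26, Ugdh at 0.18 ± 0.31 and Sult1a1 at -0.58 ± 0.40 (SE). Leaving out 1 array moved Sult1a1 from -0.90, in the fit that lacked wild-type replicate 3, to -0.20, in the one that lacked replicate 1 of that group. For Ugdh the range was -0.02 (without Msi1-null replicate 3) to 0.48 (without Msi1-null replicate 1).

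Genes of heme synthesis, heme breakdown and iron handling, the setting in which Hmox1 acts, had higher means for 3 of 11 and a median of -0.07. Blvrb, a biliverdin reductase, differed by 0.09 ± 0.11 and Fth1, the ferritin heavy chain that stores iron, by -0.07 ± 0.12 (SE). Hpx and Hp, which bind free heme and hemoglobin in plasma, were at 0.10 ± 0.16 and -0.46 ± 0.26 (SE). Of 10 genes of superoxide and peroxide handling, with metallothioneins and a copper chaperone among them, 3 were higher, between Sod3, the extracellular superoxide dismutase, at 0.37 ± 0.23 and Nox4, an NADPH oxidase, at -0.41 ± 0.45 (SE). The Nox4 value of wild-type replicate 1 was 915, against 239 to 416 elsewhere, and without that array the difference was 0.15. Hp was -0.18 without Msi1-null replicate 2, and Sod3 was 0.15 without Msi1-null replicate 1.

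**Figure D4:**
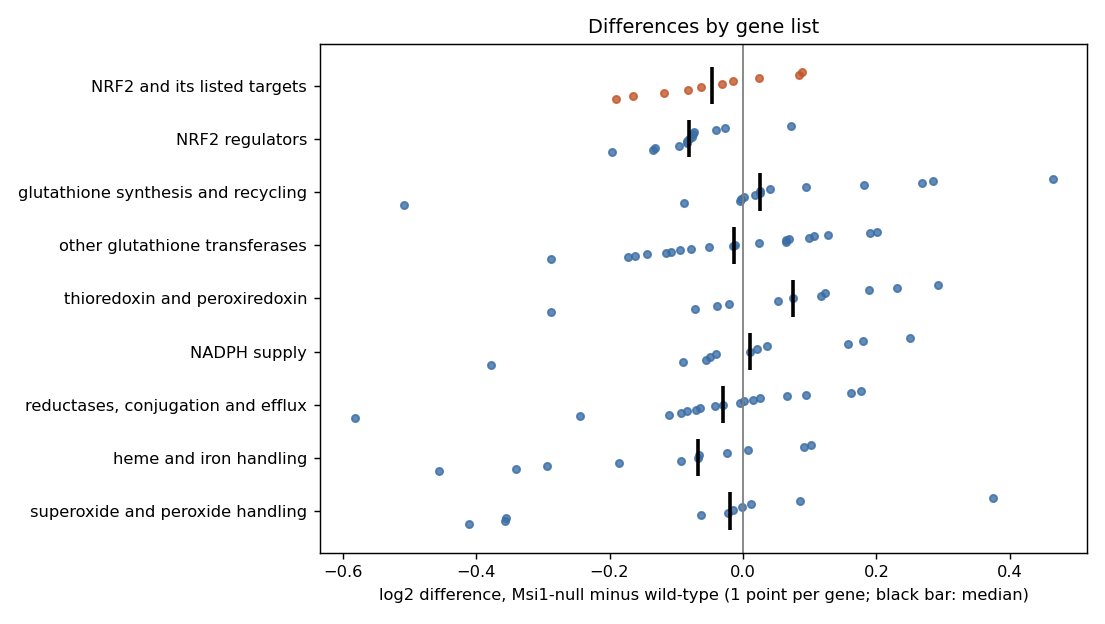
Log2 difference, Msi1-null minus wild-type, on the x axis for each measured gene (1 point per gene), with the 10 genes described first in the top row and 8 wider lists below; black bars are medians. The points run from -0.58 (Sult1a1) to 0.46 (Gpx2), and the list medians lie between -0.08 and 0.07.

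Gstm1 had the largest SD over the 6 arrays among the 10 genes, 0.63 on the log2 scale, and 1.43% of all genes had a larger one. The genes of most similar pattern, by the smallest root mean square difference of centred log2 values over the 6 arrays, were Clic6, a chloride channel protein (0.20), Arhgap44, a GTPase-activating protein (0.21), and Pdzk1ip1, a membrane-associated protein (0.22). Clic6 read 1051, 701 and 1003 in wild-type and 562, 1530 and 646 in Msi1-null arrays. All 3 were highest in Msi1-null replicate 2 and, unlike Gstm1, lowest in Msi1-null replicate 1.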

How the data were processed

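Total RNA, 6 ug per sample, was labelled with biotin and hybridised to Affymetrix arrays, per the labels' protocols. The authors deposited 1 table of linear intensity values, made with GCRMA per the submitters' processing notes. GCRMA corrects background by probe sequence, and its effect on differences of dim transcripts was not tested. Its settings and any rescaling are not given in the sources used here. Array medians lay between 159.3 and 164.4, and the number of arrays limits the precision.

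Of 45101 probe sets, 64 controls were left out. Platform annotation named 34945 with 1 symbol, 932 with several (left unnamed) and 9160 with none; symbols were updated by Entrez identifier (34754 matched). Values were analysed as log2(intensity + 1), which understates differences of dim genes only slightly, the lowest deposited value being 51.2. One limma 3.58.1 model in R 4.3.3 (eBayes with trend, genotype only) covered all 45037 probe sets, with Benjamini-Hochberg adjustment at 0.05, and was tested on simulated data. SE and 95% intervals are limma's moderated ones. Named pathway genes were fixed partners plus the highest and lowest difference of each list; Prdx1, G6pdx and Ftl1 were not analysed here. Genes and lists were chosen with earlier results of these arrays known.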

Additional observations from a re-analysis of the deposited data

How the results depend on the processing

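The 10 genes were recomputed under 18 alternatives, and 0 passed an adjusted p under 0.05 in any of them, nor under 0.1; the lowest adjusted p was 0.817 (limma). Of 168 single-gene values 148 kept their sign. Some could not change it, because filters on mean log2 value, eBayes without a trend and a replicate block leave the difference itself unchanged. With array weights Gclc was 0.021, Gclm 0.037, Gsta4 0.23, Gstm1 0.0065 and Hmox1 -0.21, and with probe sets averaged per gene Txnrd1 was -0.010 and Srxn1 0.039. Leaving out 1 array at a time moved Nfe2l2 between -0.079 and 0.019, Gclm between -0.16 and 0.031, Srxn1 between -0.16 and 0.060, Gsta4 between -0.33 and 0.37, Gstm1 between -0.68 and 0.14, and Hmox1 between -0.23 and 0.27. The median difference of the 10 genes lay between -0.11 and 0.019 under the alternatives, each less than 1 SD from the main value. This SD was the pooled within-group SD of the median centred log2 value of the 10 genes in each array. The cause of these shifts was not tested.

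Over all probe sets the count at an unadjusted p under 0.05 was 1355. It was 546 with the filter at a mean log2 value of 8, where fewer probe sets were tested, 2153 with array weights and between 886 (without wild-type replicate 1) and 2723 (without Msi1-null replicate 1) with 1 array left out. At an adjusted p under 0.05 the counts were 0 to 1 with 1 array left out, the 1 being Ighm without Msi1-null replicate 1. The filter at 8 removed Slc7a11 and Nqo1. With the replicate number as a block the count at an unadjusted p under 0.05 was 2120, and 0 of the 10 genes were called. Deviations of same-numbered arrays correlated at 0.17, -0.0906 and 0.282, and those of differently numbered arrays at -0.257 to 0.0578. With 3 arrays per group these values cannot show whether same-numbered arrays were paired. Of 492 values of the 29 named pathway genes, 23 changed sign, and those from the filters, the block and eBayes without a trend could not. Signal near background limits what can be said of Nqo1 and Slc7a11.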
